A study of Mus musculus with 6 samples.

Results

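The feedback genes of the RAS-ERK pathway were examined in AE9a leukemia cells from mice given oil or tamoxifen. The 10 genes were chosen by name as known members of this feedback layer: the Sprouty genes Spry1, Spry2 and Spry4, the Sprouty-related genes Spred1 and Spred2, the MAP kinase phosphatases Dusp2, Dusp4, Dusp5 and Dusp6, and the transcription factor Etv5. All 10 had a row among the 53618 named rows of the expression table. A test was run on the 12298 genes with a normalised read count of 10 or more in at least 3 libraries, and 5 of the 10 were among them: Spry1, Spred1, Spred2, Dusp2 and Dusp5.

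When a growth factor receptor such as the KIT receptor of blood progenitors is engaged, RAS proteins become loaded with GTP and switch on the RAF, MEK and ERK kinases in turn. Active ERK phosphorylates transcription factors, and among the genes that follow are inhibitors of the same pathway, so their transcripts are widely used as a readout of ERK output. Sprouty and Spred proteins act above RAF, where Spred proteins bring the RAS GTPase activating protein neurofibromin to the membrane. Dusp phosphatases act at the end of the cascade and remove the activating phosphates from the MAP kinases themselves. Etv5 is an ETS family factor that is transcribed in response to ERK.

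The 6 bulk RNA-seq libraries came from GFP+Lin-c-Kit+ splenocytes, with 1 library per mouse, sorted 3 days after the first injection. AE9a, a shortened form of the AML1-ETO fusion that causes acute myeloid leukemia in mice, was delivered together with GFP by a retrovirus into fetal liver cells of the genotype Usp18+/f UBCER-Cre. Adult, sub-lethally irradiated C57BL/6 recipients of these leukemia cells, which keep blood cells of their own, were injected once sick with oil (3 libraries, Usp18+/f) or with tamoxifen in oil (3 libraries, Usp18+/Δ). The AE9a transgene, GFP, the UBCER-Cre recombinase, which is expressed in all tissues and activated by tamoxifen, and 1 floxed Usp18 allele were thus shared by both groups, and only one group received tamoxifen, so the drug and the allele cannot be told apart. How many separate leukemias the cells came from is not given in the sources used here.

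Usp18, which encodes an interferon-induced protease and negative regulator of interferon signaling, went against the labels. It had 217, 214 and 176 normalised read counts in the oil-labelled libraries 1, 2 and 3, and 477, 329 and 284 in the tamoxifen-labelled libraries of the same numbers. Each tamoxifen-labelled library was above each oil-labelled library (log2 fold change 0.81, SE 0.25, limma adjusted p = 0.666), and 7.86% of all tested genes were higher without overlap. Without the library labelled tamoxifen 1, the log2 fold change of Usp18 was 0.60 (limma adjusted p = 0.181). Reads over the whole gene do not separate the deleted from the intact allele, so all directions below are between libraries as labelled.

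The libraries held 19172471 to 23785143 reads. The library labelled tamoxifen 1 stood apart: its median correlation with the others was 0.913 against 0.981 to 0.990 for the rest, mitochondrial transcripts took 0.00923% of its reads against 1.01% to 1.56%, and its deviations from the gene medians rose with the GC content of the genes (Spearman rho 0.68 across genes, against -0.21 to 0.00023 in the other libraries). Values without it are given beside the results that it moved. Of the progenitor markers, Kit, Cd34 and Myb were present in all 6 libraries, whereas Flt3 and Cd33 were at or near 0 and Mpo was at 0 to 20.2 normalised read counts. The erythroid gene Klf1 and mast cell genes such as Cpa3 and Ms4a2 were abundant in both groups. In these bulk samples, fewer cells of a type and less RNA per cell cannot be told apart.

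Levels of different genes were compared as normalised read counts per kilobase of annotated exon in the oil-labelled libraries. Spred1 had the highest level of the 10 genes (102 ± 15.3 per kilobase, SD, n = 3), followed by Spred2 (77.0 ± 14.6), Dusp2 (51.7 ± 9.17) and Spry1 (26.9 ± 5.93). The median over 12141 tested genes with an annotated length was 149 per kilobase, so all of the feedback genes were below the middle of the expressed genes, Spred1 at percentile 41.2 and Spry1 at percentile 21.0. A wide gap followed. Dusp5 was at 3.23 ± 1.51 per kilobase (percentile 3.41), Etv5 at 1.43 ± 0.557, Spry2 at 1.31 ± 1.15 and Dusp6 at 0.287 ± 0.497, and Dusp4 and Spry4 were at 0. Neighbours in this order differed beyond the range of their 3 libraries only between Dusp2 and Spry1 and between Spry1 and Dusp5. The ranges of Spred1 and Spred2 overlapped, as did those of Spred2 and Dusp2 and those of every neighbouring pair from Dusp5 downwards.

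**Figure D1:**
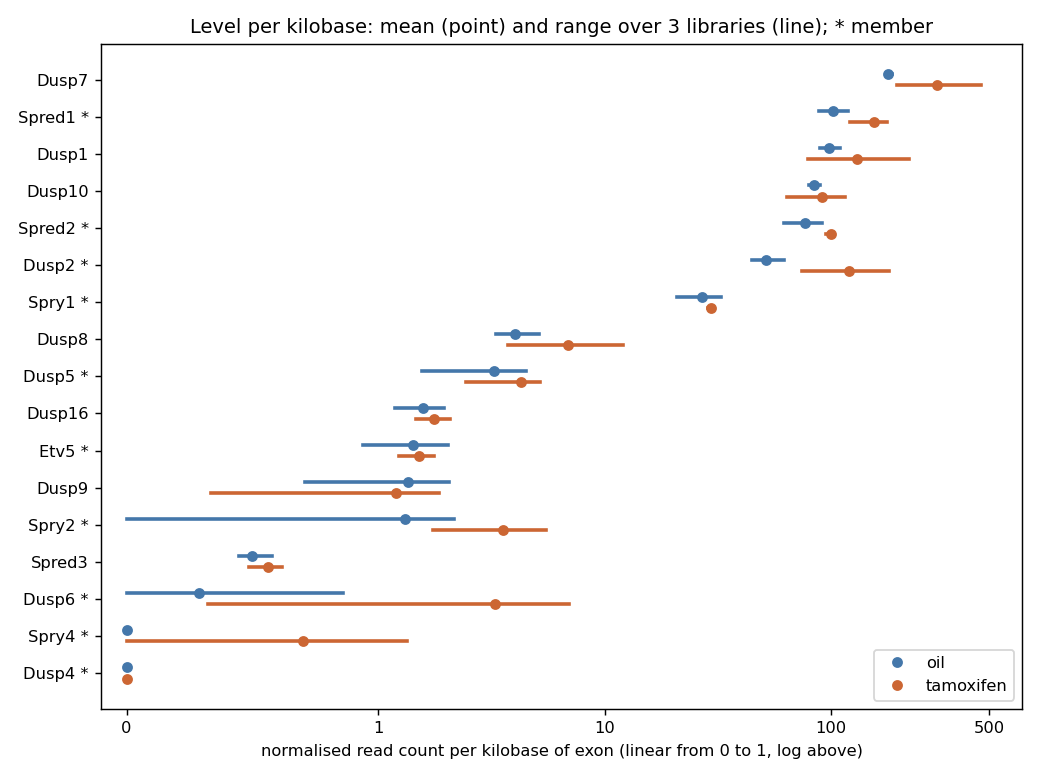
Normalised read counts per kilobase of exon for the 10 feedback genes (marked with a star) and 7 related phosphatase and Spred genes, as the mean (point) and range (line) of the 3 oil-labelled libraries (blue) and the 3 labelled tamoxifen (orange). The axis is linear from 0 to 1 and logarithmic above; Spred1, Spred2, Dusp2 and Spry1 lie between 26.9 and 102 in the oil-labelled libraries, and the other 6 feedback genes at 3.23 or below.

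The same scale places the feedback genes among their relatives. Dusp7, a cytoplasmic ERK phosphatase, was at 178 ± 6.68 per kilobase in the oil-labelled libraries, above each of the 4 chosen phosphatases. Dusp1, the immediate early phosphatase of the nucleus, was at 97.7 ± 10.5, and Dusp10, which prefers JNK and p38, at 83.7 ± 5.26. Dusp8, Dusp16 and Dusp9 were at 4.01, 1.59 and 1.36. Spred3, the remaining Spred gene, was at 0.497 ± 0.0705. Of the 10 phosphatase genes measured, those with the most transcript per kilobase were thus Dusp7, Dusp1, Dusp10 and Dusp2, and Dusp4, Dusp5 and Dusp6 were scarce.

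Genes of this kind are known to be controlled at the promoter by ERK-responsive factors. Serum response factor binds the CArG box, Capicua is a repressor that ERK releases from its octamers, and ETS factors bind a core motif of their own. The E-box is bound by MYC and related factors. Promoter sequences are shown here for Dusp2 and Spred1, and for Dusp5, Dusp6 and Spry2, which held a CArG box or a Capicua octamer. RefSeq promoter windows (GRCm38.p6) were found for 8 of the 10 genes. The 250 bases before each RefSeq start were searched on both strands. Dusp2 (GENCODE vM21 gene on chr2:127336159-127338376, plus strand) and Spred1 (chr2:117121374-117182279, plus strand) are the tested feedback genes with the largest fold changes below. Their windows are chr2:127335909-127336158 and chr2:117120821-117121070, both on the plus strand, with the E-box of Dusp2 in capitals and no searched motif in Spred1. The Spred1 window ends upstream of the GENCODE start of the gene, and the bases between them were not searched. Dusp5 (chr19:53529109-53542431, plus strand, window chr19:53528895-53529108, cut to 214 bases where the GENCODE gene begins, 36 bases before the RefSeq start) carries a pair of CArG boxes, and Dusp6 (chr10:99263231-99267489, plus strand, window chr10:99262981-99263230) and Spry2 (chr14:105891947-105896819, minus strand, window chr14:105896820-105897069) each carry a Capicua octamer, also in capitals. All are written 5′ to 3′ on the strand of the gene.
Dusp2: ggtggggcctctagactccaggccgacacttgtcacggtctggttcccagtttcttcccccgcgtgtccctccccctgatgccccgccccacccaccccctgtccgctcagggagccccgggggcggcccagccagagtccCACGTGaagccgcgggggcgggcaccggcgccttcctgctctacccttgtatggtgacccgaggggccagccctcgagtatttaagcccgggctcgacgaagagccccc
Spred1: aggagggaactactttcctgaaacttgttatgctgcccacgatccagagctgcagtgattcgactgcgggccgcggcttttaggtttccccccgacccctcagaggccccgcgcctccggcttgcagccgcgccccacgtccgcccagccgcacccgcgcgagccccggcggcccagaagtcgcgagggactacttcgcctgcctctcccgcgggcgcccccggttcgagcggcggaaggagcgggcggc
Dusp5: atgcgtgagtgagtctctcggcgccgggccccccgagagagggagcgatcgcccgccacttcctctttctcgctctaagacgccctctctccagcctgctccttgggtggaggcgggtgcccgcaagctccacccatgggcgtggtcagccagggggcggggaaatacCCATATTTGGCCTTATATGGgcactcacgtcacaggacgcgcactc
Dusp6: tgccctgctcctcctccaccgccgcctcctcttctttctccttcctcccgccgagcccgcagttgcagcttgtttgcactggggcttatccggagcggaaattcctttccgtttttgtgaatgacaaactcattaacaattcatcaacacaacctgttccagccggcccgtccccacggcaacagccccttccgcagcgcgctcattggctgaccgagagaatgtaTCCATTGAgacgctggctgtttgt
Spry2: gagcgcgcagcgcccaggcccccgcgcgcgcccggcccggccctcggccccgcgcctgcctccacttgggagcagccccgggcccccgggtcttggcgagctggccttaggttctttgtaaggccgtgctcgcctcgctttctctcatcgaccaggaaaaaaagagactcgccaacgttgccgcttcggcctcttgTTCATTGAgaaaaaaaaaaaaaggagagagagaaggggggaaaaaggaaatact

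The 2 CArG boxes of Dusp5 abutted each other and began 46 and 36 bases before the end of the printed window, and a CArG box was found in 1.47% of 32851 promoter windows. Capicua octamers (TGAATGAA, TGAATGGA, TCAATGAA or TCAATGGA) occurred in 3.19% of windows and in 2 of the 9 windows of the feedback genes, 24 bases before the start of Dusp6 and 54 before that of Spry2. The E-box CACGTG, found in 6.02% of windows, began 109 bases before the start of Dusp2. None of the 9 windows held the ETS motif CCGGAAGT (2.88% of windows), the cyclic AMP response element TGACGTCA (1.55%), the AP-1 motif TGANTCA (6.75%), the STAT motif TTCNNNGAA (7.02%), the interferon-stimulated response element (2.98%) or an NF-kB motif (3.90%). Some of these motifs can share bases, such as the interferon-stimulated response element with TTCNNNGAA. The windows of the feedback genes had 56.0% to 71.2% GC with a median of 62.4%, against a median of 52.4% over all windows. The sequences that hold the Capicua and CArG motifs thus belong to Dusp5, Dusp6 and Spry2, which had few reads in these cells, and those of Spred1, Spred2, Spry1 and Etv5 held none of the motifs searched.

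The comparison of the tamoxifen-labelled libraries with the oil-labelled ones asks how the transcripts of leukemia cells differ after the treatment meant to remove 1 Usp18 allele. None of the feedback genes was called by limma at an adjusted p of 0.05, and neither was any other gene (0 of 12298, 0%). Without adjustment, Dusp2 and Spred1 had a p under 0.05, both higher in the tamoxifen-labelled libraries, where 550 of all tested genes (4.47%) had such a p and 397 (3.23%) were on the higher side. The 2 groups did not overlap for Dusp2, Spred1 and Spred2, again all higher, and 967 of all 12298 tested genes (7.86%) were higher without overlap. The median log2 fold change of the 5 tested feedback genes was 0.40, beside -0.017 over all tested genes and 0.042 over 57 other RAS-ERK genes. Without the library labelled tamoxifen 1 these medians were 0.38, -0.021 and -0.044. The feedback gene median was 0.52, 0.42 and 0.57 without oil 1, 2 and 3, and 0.71 and 0.44 without tamoxifen 2 and 3. An exact two-sided permutation test of 3 against 3 libraries cannot give a p below 0.1.

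**Figure D2:**
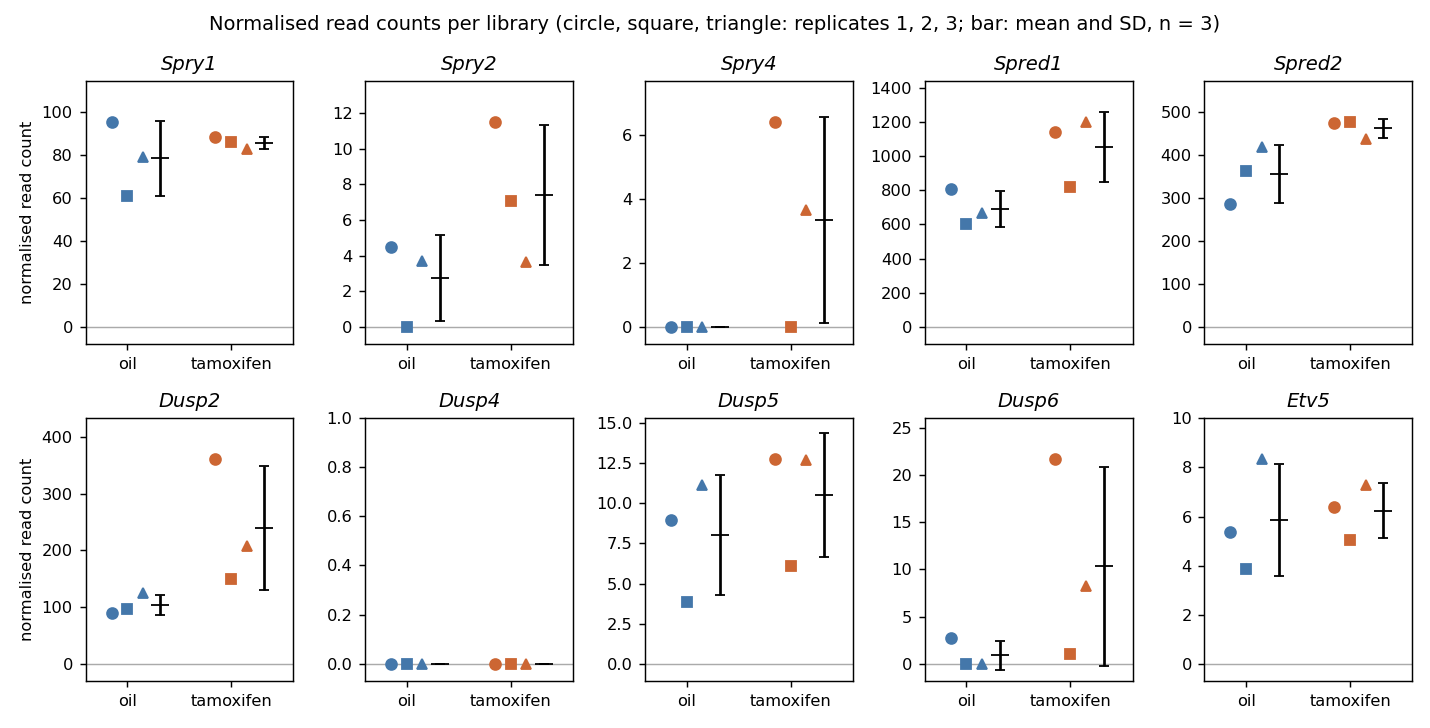
Normalised read counts of the 10 feedback genes in each library, with circles, squares and triangles for replicates 1, 2 and 3 of the oil-labelled libraries (blue) and tamoxifen (orange) and a black bar for the mean and SD (n = 3); each gene has its own linear axis. The groups are apart for Spred1, Spred2 and Dusp2, overlap for Spry1, Dusp5 and Etv5, and rest on few reads for Spry2, Spry4 and Dusp6, and Dusp4 is at 0 throughout.

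Among the Sprouty genes, whose proteins bind GRB2 and RAF and damp receptor signaling, only Spry1 passed the filter of the main fit. Spry1 (chr3:37639947-37644598, plus strand) had 95.2, 60.8 and 78.9 normalised read counts in the oil-labelled libraries and 88.2, 85.9 and 82.8 in the tamoxifen-labelled ones. The values overlapped, and the library with the lowest and the library with the highest value were both labelled oil. The means were 78.3 ± 17.2 and 85.6 ± 2.73 (SD, n = 3), and the log2 fold change of 0.15 (SE 0.25) had a 95% interval of -0.45 to 0.75 (limma adjusted p = 0.766). Its sign turned with the processing, to -0.091 after a correction for GC content and to -0.018 without the library labelled oil 2. A gene model of uncertain type, Gm42922, overlaps Spry1 on the other strand.

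Spry2, the Sprouty gene with an octamer for Capicua shown above, had 5, 0 and 4 reads in the oil-labelled libraries and 9, 7 and 4 in the tamoxifen-labelled ones. The groups overlapped, with oil 1 above tamoxifen 3, and the gene fell under the filter. Spry4 (chr18:38586247-38601415, minus strand) had no read in any oil-labelled library and 5, 0 and 4 reads in the tamoxifen-labelled ones. A count of 0 allows up to 3 reads in a library, and 1 tamoxifen-labelled library was also at 0, so the groups overlapped and Spry4 fell under the filter (limma without the filter gave an unadjusted p of 0.0434 and an adjusted p of 0.713). Spry3 was not analysed here.

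Spred1, which is mutated in a RASopathy and recruits neurofibromin to RAS at the membrane, had 805.7, 603 and 664.8 normalised read counts in the oil-labelled libraries and 1138.7, 819.4 and 1198.6 in the tamoxifen-labelled ones. All tamoxifen-labelled libraries were higher, but the lowest of them, tamoxifen 2, was close to oil 1. The means were 691 ± 104 and 1052 ± 204 (SD, n = 3), a ratio of 1.52. The log2 fold change was 0.60 with an SE of 0.21 and a 95% interval of 0.090 to 1.10, and limma gave an unadjusted p of 0.0274 and an adjusted p of 0.666. Without the library labelled tamoxifen 1 the ratio of the means was 1.46 and the log2 fold change 0.53 (limma adjusted p = 0.263). Spred1 has a GC content of 41.2% over its exons, and the GC correction moved its log2 fold change to 1.02, or to 0.52 when tamoxifen 1 was also left out.

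Spred2 (chr11:19924375-20024026, plus strand), the relative of Spred1 with the same EVH1 and Sprouty domains, had 285.6, 361.8 and 419.7 normalised read counts in the oil-labelled libraries and 474.2, 476.9 and 437.4 in the tamoxifen-labelled ones. The groups did not overlap, with the nearest pair oil 3 and tamoxifen 3. The means were 356 ± 67.2 and 463 ± 22.0 (SD, n = 3). The log2 fold change of 0.40 (SE 0.20) had a 95% interval of -0.077 to 0.87 that includes 0 (limma unadjusted p = 0.0875, adjusted p = 0.666). It was 0.38 without the library labelled tamoxifen 1 and 0.25 without the library labelled oil 1, in which Spred2 was lowest.

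Of the 2 phosphatases that passed the filter, Dusp2 differed more between the labels. Dusp2 encodes a nuclear phosphatase of ERK and p38 that is induced on activation of lymphoid and myeloid cells. It had 89.8, 96.5 and 124.4 normalised read counts in the oil-labelled libraries and 361.7, 149.5 and 207.3 in the tamoxifen-labelled ones. All tamoxifen-labelled libraries were above all labelled oil, and tamoxifen 1 was far above the other 2. The means were 103.6 ± 18.4 and 239.5 ± 109.7 (SD, n = 3), a ratio of 2.31 that fell to 1.72 without tamoxifen 1. Its log2 fold change of 1.12 (SE 0.36, 95% interval 0.27 to 1.97) had an unadjusted p of 0.0177 and an adjusted p of 0.666 in limma.

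The size of the Dusp2 difference moved with tamoxifen 1, and its direction did not. Dusp2 has a GC content of 59.2%, and its log2 fold change was 0.77 without tamoxifen 1, 0.80 after the GC correction and 0.74 with both. edgeR and DESeq2 on the recovered reads gave 1.22 and 1.21, with adjusted p of 0.726 and 0.202. In DESeq2 without tamoxifen 1, the adjusted p was 0.0994 for Dusp2 and 0.0641 for Spred1, where 231 of 13019 genes (1.77%) passed 0.05. In the fits with calls among other genes, the feedback genes had 0 calls where 0.473% of genes were called in DESeq2 on 6 libraries, 0.0163% with the GC correction, 0.333% in limma without tamoxifen 1, with or without the GC correction, and 0.364% in edgeR without it, and edgeR on 6 libraries called 0% of genes (594, or 4.81%, had an unadjusted p under 0.05, Dusp2 and Spred1 among them). At a looser threshold in limma (unadjusted p under 0.005, log2 fold change over 0.5 in size), 0 feedback genes and 0.529% of all tested genes passed. Without tamoxifen 1, Dusp2, Spred1 and Spred2 had an unadjusted p under 0.05 on the higher side, as had 6.04% of all tested genes. Over the main fit and its 19 alternatives the log2 fold change ranged from 0.74 to 1.41 for Dusp2, from 0.49 to 1.02 for Spred1 and from 0.25 to 0.52 for Spred2, and none of the 5 tested genes passed an adjusted p of 0.05 in any of them.

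**Figure D3:**
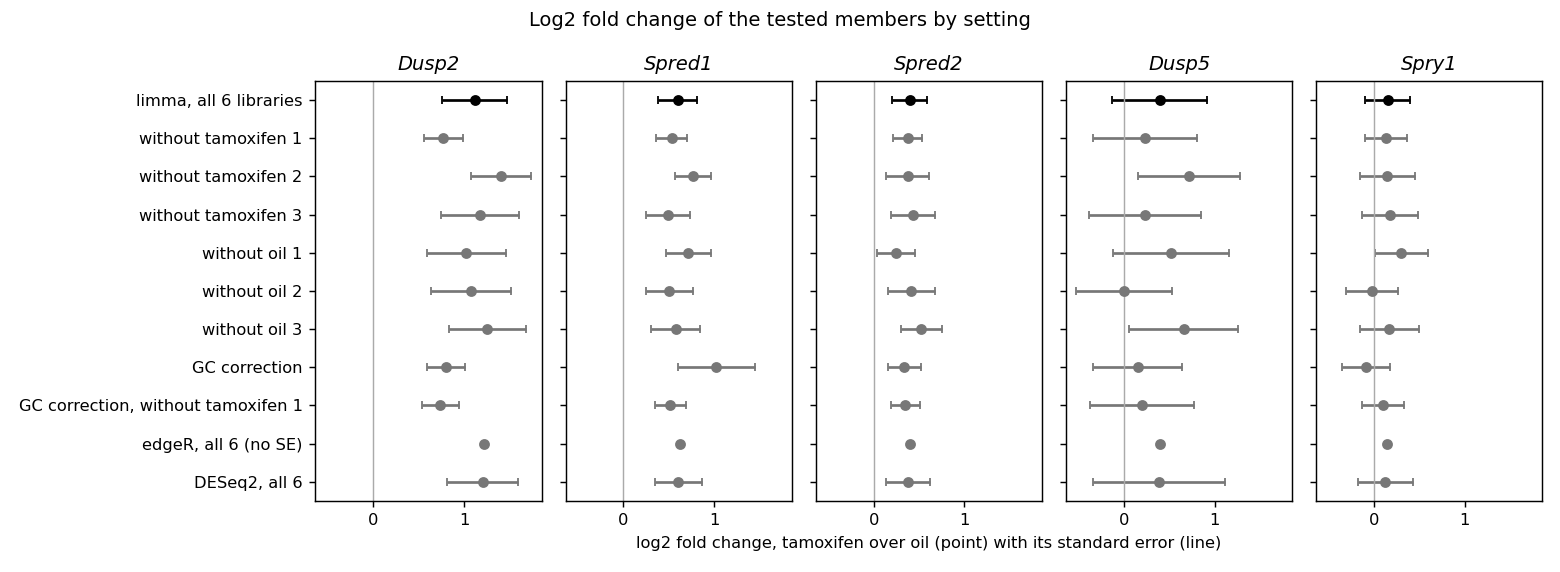
Log2 fold change (point) with its standard error (line) of the 5 tested feedback genes, tamoxifen-labelled libraries over oil, in the limma fit on 6 libraries (black) and in 10 other settings (grey); edgeR gives no standard error. Dusp2 lies between 0.74 and 1.41 and Spred1 between 0.49 and 1.02 in every setting drawn, and Spry1 and Dusp5 reach 0.

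The other phosphatases of the set were scarce. Dusp6, which holds ERK in the cytoplasm, had 3, 0 and 0 reads in the oil-labelled libraries and 17, 1 and 9 in the tamoxifen-labelled ones (2.69, 0 and 0 against 21.7, 1.01 and 8.18 normalised read counts). The groups overlapped at counts of 3 reads or fewer, where no order can be read. Dusp6 fell under the filter of the main fit. DESeq2 gave it an unadjusted p of 0.0246 (adjusted p = 0.720), where 5.53% of genes had an unadjusted p under 0.05, and an unadjusted p of 0.241 once tamoxifen 1 was left out.

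Dusp5, a nuclear ERK phosphatase, had 10, 4 and 12 reads in the oil-labelled libraries and 10, 6 and 14 in the tamoxifen-labelled ones. These are 8.98, 3.86 and 11.1 against 12.8, 6.06 and 12.7 normalised read counts, and the groups overlapped. Its log2 fold change of 0.39 (SE 0.52) had a 95% interval of -0.85 to 1.64 (limma adjusted p = 0.716) and fell to 0.23 without tamoxifen 1 and to 0.00065 without the library labelled oil 2. An antisense gene, AC137853.2, overlaps Dusp5, and the strand setting of the counting is not given in the sources used here. Dusp4 (chr8:34807297-34819894, plus strand), a nuclear phosphatase of ERK and JNK, had no read in any of the 6 libraries, which allows up to 3 reads in each.

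Etv5 (chr16:22381309-22439719, minus strand) had 6, 4 and 9 reads in the oil-labelled libraries and 5, 5 and 8 in the tamoxifen-labelled ones. The groups overlapped fully and the gene fell under the filter of the main fit. Limma without the filter gave a log2 fold change of 0.12 (adjusted p = 0.936). Etv4 and Etv1, the other factors of the same ETS subfamily, were also under the filter.

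Summed markers of macrophages, neutrophils and T cells were also higher in every tamoxifen-labelled library than in any oil-labelled one. Summed over 12 macrophage markers, the normalised read counts were 142 to 321 in the oil-labelled libraries and 446 to 504 in the tamoxifen-labelled ones, and 5 of the 12, of which 9 passed the filter, did not overlap between groups, all higher (7.86% of all tested genes were higher without overlap). Summed over 7 neutrophil markers they were 5.39 to 7.72 and 26.4 to 62.6, with Ly6g at 0. The sum of 7 T cell markers was 344 to 404 and 421 to 878, nearly all of it from Lat, with Cd3e, Cd5 and Cd28 at 0. Of 5 NK cell markers, Ncr1, Klrb1c, Klrd1 and Eomes were at 0, as were the B cell genes Ms4a1 and Blk. The Lin- c-Kit+ sort is meant to remove mature cells of several of these lineages, though mast cells themselves carry c-Kit. The megakaryocyte markers summed to 165 to 201 and 193 to 639. The 8 mast cell and basophil markers summed to 26613 to 27344 in the oil-labelled libraries, and to 8260 in tamoxifen 1, 29608 in tamoxifen 2 and 30483 in tamoxifen 3. Of these 8, 3 were higher without overlap and 1, Ms4a2, was lower (9.69% of all tested genes were lower without overlap). Cpa3 overlapped between groups (log2 fold change 0.74, limma unadjusted p = 0.0498, adjusted p = 0.666). It had 3823, 3992 and 4174 normalised read counts in the oil-labelled libraries and 4074, 7774 and 9431 in the tamoxifen-labelled ones. Without tamoxifen 1, the ratio of means went from 1.77 to 2.15 for Cpa3 and from 0.60 to 0.81 for Ms4a2. The part of these other cells in the values of Dusp2, Spred1 and Spred2 was not tested.

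The genes whose pattern over the 6 libraries was most like that of Spred1 were Nkg7 (Pearson r 0.998 on the log2 scale), Rcsd1 (0.996) and Smpd1 (0.995). Nkg7, a granule protein gene of cytotoxic cells, had 159, 58.9 and 89.1 normalised read counts in the oil-labelled libraries and 644, 193 and 661 in the tamoxifen-labelled ones. It was thus high where Spred1 was high, in tamoxifen 1 and tamoxifen 3, and lowest in oil 2. The corresponding r was 0.82 for Dusp2, 0.71 for Dusp5, 0.59 for Spry1 and 0.42 for Spred2 (0.27 without tamoxifen 1), so the feedback genes were not among those most alike, Dusp2 coming 547th. The 6 points share their libraries and the size factors of those libraries, and r is given as a description.

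Spred2 and Dusp2 had an r of 0.75, and Spry1 and Spred2 an r of -0.0025 (-0.12 without tamoxifen 1). The highest library was not the same for all tested feedback genes. It was tamoxifen 1 for Dusp2 and, narrowly, for Dusp5, tamoxifen 3 for Spred1, tamoxifen 2 for Spred2 and oil 1 for Spry1.

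Of 75 other listed RAS-ERK genes, 57 were tested and none was called in limma (0 higher, 0 lower). Groups did not overlap for 12 of the 57 (17.6% of all tested genes), of which 4 had higher values with the tamoxifen label (7.86% of all tested genes) and 8 had lower ones (9.69%). The other MAP kinase phosphatases had log2 fold changes from 0.087 for Dusp10 to 0.62 for Dusp7, the only one of the 5 whose groups did not overlap. Without tamoxifen 1, the value of Dusp1 turned from 0.25 to -0.22, that of Dusp8 fell from 0.59 to 0.096, and those of Dusp16 and Dusp10 were 0.27 and 0.32. Dusp7 had 583.9, 586.6 and 624 normalised read counts in the oil-labelled libraries and 1536.2, 657.7 and 762.1 in the tamoxifen-labelled ones (SE 0.32, limma adjusted p = 0.666). Tamoxifen 1 stood above the other libraries here too, and the log2 fold change was 0.24 without it.

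Other ERK output genes overlapped between groups in 6 of 6 tested. Their log2 fold changes ran from -0.63 for Phlda1 to 0.98 for Epha2. Without tamoxifen 1, Phlda1 was at -0.39, and Fos turned from 0.042 to -0.57 (limma adjusted p = 0.250). Egr1 and Ier3 were at 0.39 and 0.17, or at 0.35 and 0.18 without that library. Ier2, an immediate early gene, had 2057, 2577 and 2391 normalised read counts in the oil-labelled libraries and 7202, 2321 and 2333 in the tamoxifen-labelled ones, so only tamoxifen 1 was apart (log2 fold change 0.54, or -0.0027 without it). Epha2, an ephrin receptor gene induced by ERK, had 74.6, 69.5 and 64.1 against 320.8, 67.7 and 119.1 (log2 fold change 0.98, SE 0.55, limma adjusted p = 0.666), and its log2 fold change was 0.37 without tamoxifen 1.

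Further feedback inhibitors and ETS repressors held the one listed gene that was called in any fit. Lrig1 encodes a membrane protein that promotes the breakdown of receptor tyrosine kinases. It had 144.6, 147.6 and 180.1 normalised read counts in the oil-labelled libraries and 118.9, 67.7 and 51.8 in the tamoxifen-labelled ones, and the groups did not overlap. The log2 fold change was -1.06 (SE 0.34), with a limma unadjusted p of 0.019 and an adjusted p of 0.666. Without tamoxifen 1, Lrig1 passed the threshold at -1.39 (limma adjusted p = 0.0247), where 41 of 12298 genes (0.333%) did. Cic, which encodes Capicua, had 3454, 3957 and 4270 against 8589, 3762 and 3624, so again only tamoxifen 1 was apart, and its log2 fold change of 0.33 became -0.071 without that library.

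**Figure D4:**
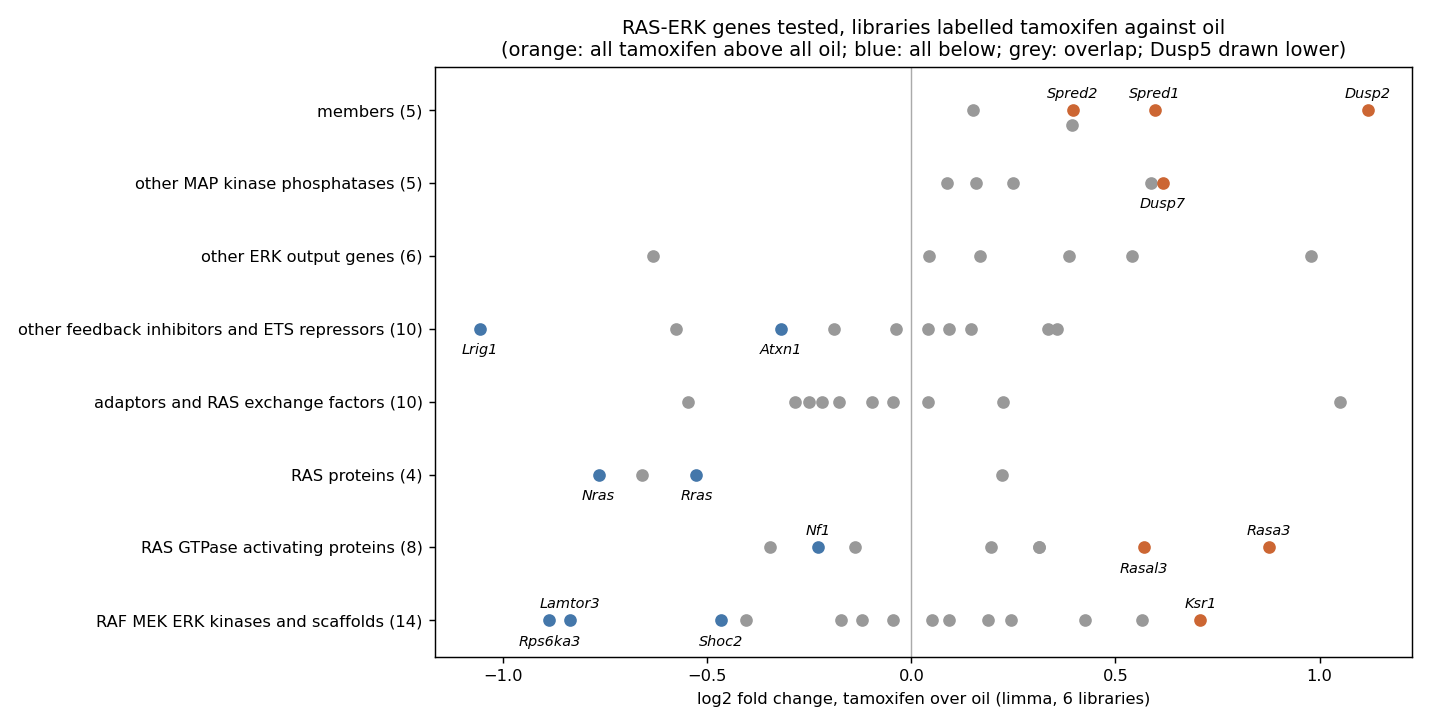
Log2 fold change of the 5 tested feedback genes and of 57 other tested RAS-ERK genes, tamoxifen-labelled libraries over oil, in the limma fit on 6 libraries, 1 point per gene and 1 line per group of genes (number tested in parentheses). Orange points are genes with all 3 tamoxifen-labelled libraries above all 3 labelled oil, blue points the opposite, and grey points overlap; Dusp2 at 1.12 lies farthest to the right and Lrig1 at -1.06 farthest to the left.

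Upstream of RAF, the adaptors and RAS exchange factors overlapped between groups in all 10 tested. Grb2, the adaptor that Sprouty proteins bind, had 8728, 8953 and 8817 normalised read counts in the oil-labelled libraries and 5051, 8552 and 9477 in the tamoxifen-labelled ones (log2 fold change -0.25, or 0.028 without tamoxifen 1). Rasgrp4, an exchange factor of mast cells, had 50.3, 29.9 and 17.6 against 97.1, 40.4 and 63.7 (log2 fold change 1.05, SE 0.49, limma adjusted p = 0.666), and its log2 fold change was 0.74 without tamoxifen 1 and 0.69 without oil 3. Of the 4 RAS genes tested, Nras and Rras were lower without overlap, beside 9.69% of all tested genes. Nras had 3820, 4126 and 3631 against 1015, 3341 and 3428 (log2 fold change -0.77, or -0.19 without tamoxifen 1). Rras had 223.7, 255.7 and 220.1 against 162.3, 182.9 and 141 (log2 fold change -0.53, SE 0.20, limma unadjusted p = 0.034, adjusted p = 0.666). After the GC correction, the log2 fold change of Rras was -0.81.

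Among the RAS GTPase activating proteins, Nf1, which encodes the neurofibromin that Spred proteins recruit, had 523.7, 505.5 and 507.9 normalised read counts in the oil-labelled libraries and 348.9, 502.1 and 476.5 in the tamoxifen-labelled ones (log2 fold change -0.23, SE 0.19, limma adjusted p = 0.666). Its groups did not overlap, though tamoxifen 2 was close to the lowest oil-labelled library, and the log2 fold change was -0.067 without tamoxifen 1. Of the 8 tested, 1 (Nf1) was lower without overlap and 2 (Rasa3 and Rasal3) were higher, beside 9.69% and 7.86% of all tested genes. Rasal3 had a log2 fold change of 0.57, or 0.10 without tamoxifen 1. Rasa3 had 111.4, 111.9 and 135.6 against 455, 148.5 and 156.4 (log2 fold change 0.88, or 0.35 without tamoxifen 1), and Rasa1 1877, 1813 and 1663 against 1490, 1699 and 1679 (log2 fold change -0.14, which was -0.077 without tamoxifen 1 and turned to 0.24 after the GC correction).

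In the kinase tier, 1 of 14 tested genes was higher without overlap and 3 were lower, beside 7.86% and 9.69% of all tested genes. Ksr1, a scaffold that holds RAF, MEK and ERK together, had 247, 209.4 and 233.1 normalised read counts in the oil-labelled libraries and 594.3, 253.6 and 350.1 in the tamoxifen-labelled ones (log2 fold change 0.71, SE 0.32, limma adjusted p = 0.666; 0.38 without tamoxifen 1). The lower genes were Shoc2, Lamtor3 and Rps6ka3, whose lowest library was tamoxifen 1, with log2 fold changes of -0.47, -0.84 and -0.89 that were -0.18, -0.26 and -0.23 without it. Iqgap1, another scaffold, had 9967, 9872 and 9009 against 8394, 8875 and 9267 (log2 fold change -0.12, SE 0.13).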

How the data were processed

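Bulk RNA-seq was performed on 3 libraries labelled oil and 3 labelled tamoxifen. Per the labels and the study's methods, RNA was extracted with Trizol, the labels name a Nextera DNA Flex kit, and the authors ran STAR and DESeq2 on mm10. Versions, annotation and strand setting are not given in the sources used here. The values the authors deposited are a signal, read counts divided by 1 size factor per library. All values were whole multiples of the value of 1 read (100% in each library, within 0.01 of a read), so whole reads were recovered and used for edgeR and DESeq2. Rows with no gene name (0.0400% to 0.0614% of reads) were left out.

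limma 3.58.1 (R 4.3.3, lmFit and eBayes with trend) was run on log2(value + 1) for genes at 10 or more in at least 3 libraries, two-sided, with Benjamini-Hochberg adjustment and a threshold of 0.05. Fold changes are on this scale, on which low genes appear to change less than they do. The planned main design was kept, as earlier work on these values had shown that they were normalized. edgeR 4.0.16 and DESeq2 1.42.0 were alternatives. Other alternatives were scaling by TMM, pseudocounts of 0.5 and 5, other filters, the replicate number as a block, a loess correction for GC content (span 0.3, available for 98.7% of tested genes) and leaving out each library. GC correction, edgeR and DESeq2 without the library labelled tamoxifen 1 were added after seeing the data. The plain limma, edgeR and DESeq2 fits on all libraries were tested on simulated data that held no library like tamoxifen 1. The other alternatives were not tested in this way. Coordinates and exon lengths are from GENCODE vM21 (GRCm38), matched by symbol, and promoters from RefSeq (GRCm38.p6). Genes and lists were chosen with earlier results of these data known. Besides the 10 genes and Usp18, the rule for genes to name took from each list the one with the highest mean value and the one with the smallest p, and the 3 genes most correlated with the member of highest mean value. Nf1, Dusp1 and other names outside it were chosen with values seen. The 95% intervals of log2 fold changes are from limma and rest on the spread between libraries. Floors (3 reads) cover counting error only: without molecular identifiers, reads are not separate molecules. The results of 2 cell type marker genes are not reported here.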

Additional observations from a re-analysis of the deposited data

How the results depend on the processing

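No feedback gene was called in any of the 20 alternatives, and the log2 fold changes of Dusp2, Spred1 and Spred2 stayed above 0 in 19 of 19. Dusp5 was under the filter of 1 CPM in 3 libraries and ranged from 0.00065 to 0.71 elsewhere. Spry1 reversed to -0.091 after the GC correction, with or without the block, and to -0.018 without the library labelled oil 2 (leave-one-out range -0.018 to 0.30). The labels share replicate numbers but do not say whether same-numbered libraries were pairs. The correlations of their deviations from the group means were -0.024, 0.061 and -0.15. They cannot decide this, because tamoxifen 1, which stood apart, enters the mean behind every tamoxifen-labelled deviation. With the replicate block no gene was called (0) and Dusp2 had a limma adjusted p of 0.731. In this balanced design the block cannot move a log2 fold change (1.12 for Dusp2). With the GC correction, the block took the 2 genes called there to 0.

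The count of all genes called moved from 0 (0 higher, 0 lower) to 2 (2, 0) with the GC correction, 71 (69, 2) in DESeq2, and 65 (59, 6) at the looser threshold (unadjusted p under 0.005, log2 fold change over 0.5 in size). When 1 library was left out it ranged from 0 to 41 (0 to 38 higher, 0 to 3 lower), the 41 being without tamoxifen 1. Also without tamoxifen 1, it was 41 (37, 4) with the GC correction, 46 (43, 3) in edgeR and 231 (175, 56) in DESeq2. In limma, 550 genes had an unadjusted p under 0.05 in the main fit, and in edgeR 594 of 12340, with 0 called. Of the other RAS-ERK genes, 1 (Lrig1) was called in each of these 4 fits without tamoxifen 1 (leave-one-out range 0 to 1), at adjusted p of 0.0247 in limma, 0.0209 with the GC correction, 0.0327 in edgeR and 0.000156 in DESeq2.

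Several named genes, such as Dusp1, Fos, Nf1 and Shoc2, were read only in the main fit and in limma without tamoxifen 1. Of all named genes outside the feedback set, the following reversed in at least 1 setting read for them, and the cause was not tested. Cic fell to -0.057 with the GC correction, with or without the block, and without tamoxifen 1 to -0.071 in limma, -0.12 with the GC correction, -0.058 in edgeR and -0.063 in DESeq2. Rasa1 was at 0.24 with the GC correction, with or without the block. Ier2 was at -0.0027 without tamoxifen 1 and -0.052 with the GC correction as well. Dusp1 and Fos were at -0.22 and -0.57 in limma without tamoxifen 1. Grb2, without tamoxifen 1, was at 0.028 in limma, 0.049 in edgeR and 0.043 in DESeq2. With 1 library left out, the ranges were -0.071 to 0.55 for Cic, -0.0027 to 0.81 for Ier2 and -0.43 to 0.028 for Grb2. The median of all genes of the main fit stayed between -0.042 and 0.020 under every alternative. Spry2, Spry4, Dusp4, Dusp6 and Etv5 had too few reads for the main fit. Without the filter, Dusp6, Spry4, Spry2 and Etv5 had unadjusted p of 0.0408, 0.0434, 0.108 and 0.829 in limma (adjusted p = 0.713, 0.713, 0.713 and 0.936). The share of all genes with an unadjusted p under 0.05 in that fit is not given here.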
